A study of Mus musculus with 8 samples.

Results

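The oxysterol-binding protein-like (Osbpl) genes were followed in the embryonic cortex of mice with and without Ptbp2, the neuronal polypyrimidine tract binding protein that represses alternative exons. RNA came from the cortex of 8 embryos at embryonic day 18.5, 4 Ptbp2 knockout and 4 wild type, each measured on its own Affymetrix mouse exon array. All embryos had a mixed CD1 and C57BL/6 strain background, and the construction of the knockout allele is not given in the sources used here. An exon array measures a gene with many probe sets, short groups of probes that each report on a small stretch of the transcript, so both the whole gene and its single parts can be compared. The members were 10 genes, Osbpl1a, Osbpl2, Osbpl3, Osbpl5, Osbpl6, Osbpl7, Osbpl8, Osbpl9, Osbpl10 and Osbpl11, among 12960 genes tested, and they held 277 of the 625534 probe sets on the array. The group was chosen by the measured gene level of Osbpl5, which was among the genes past the threshold in the same knockout against wild type comparison, and the other 9 genes were added by name. The values of Osbpl5 are therefore given as a description with no test. The fit across all genes is used for the other 9, and nothing here is independent support for a change in Osbpl5.

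The Osbpl genes encode ORP proteins, relatives of the oxysterol-binding protein OSBP. They share a lipid-binding domain that carries a sterol or another lipid, and many also bind a phosphoinositide, most often phosphatidylinositol 4-phosphate (PI4P). Most work where the endoplasmic reticulum (ER) touches another membrane, and several are tied to the ER through the VAP proteins. In human cells, ORP5 and ORP8, the products of the Osbpl5 and Osbpl8 orthologues, are held in the ER by their own membrane anchor and exchange phosphatidylserine for PI4P at contacts with the plasma membrane.

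Osbpl5 lay on mouse chromosome 7, within a cluster of imprinted genes, and RefSeq listed 3 start sites for it on assembly GRCm38.p6. Windows of 300 bases around start sites, 250 before and 50 after, were used for 8 of the 10 members, 12 windows in all. Osbpl1a and Osbpl10 were not covered, which does not show that they lack such a window. The motif counts over the 12 windows therefore do not extend to these genes. The outermost Osbpl5 window and the window of Osbpl8 are shown because these relatives share the ER anchor and gave different values on the arrays. They were read 5′ to 3′ on the gene's strand, at chr7:143756959-143757258 (minus strand) and chr10:111164552-111164851 (plus strand). Capitals mark matches on either strand to the GC box (letters GGGCGG), the CCAAT box (letters CCAAT), the E-box palindrome (letters CACGTG) and the sterol response core (letters TCACNCCAC). No matches overlapped in these windows.
Osbpl5: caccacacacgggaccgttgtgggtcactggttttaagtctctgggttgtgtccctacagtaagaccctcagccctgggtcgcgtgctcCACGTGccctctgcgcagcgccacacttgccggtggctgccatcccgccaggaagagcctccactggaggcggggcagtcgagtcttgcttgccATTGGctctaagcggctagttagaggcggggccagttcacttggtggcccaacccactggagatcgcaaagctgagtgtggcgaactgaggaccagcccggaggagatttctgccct
Osbpl8: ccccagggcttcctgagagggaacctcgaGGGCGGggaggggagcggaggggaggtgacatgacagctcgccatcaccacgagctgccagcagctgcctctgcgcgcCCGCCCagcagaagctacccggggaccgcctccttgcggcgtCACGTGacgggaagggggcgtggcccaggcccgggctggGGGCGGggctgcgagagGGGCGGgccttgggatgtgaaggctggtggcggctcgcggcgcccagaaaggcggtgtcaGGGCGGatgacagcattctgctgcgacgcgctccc

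The Osbpl5 window held 1 E-box palindrome, 1 CCAAT box on the opposite strand and 0 GC boxes. The Osbpl8 window held 1 E-box palindrome, 5 GC boxes and 0 CCAAT boxes. Over all 32851 start windows in the table, 7.15% held the E-box palindrome, 37.4% the CCAAT box, 35.7% the GC box and 1.24% the sterol response core. The sterol response core was in 0 of the 12 member windows, so these letters are not in these stretches. Of the 12, 2 held the E-box palindrome, 7 the CCAAT box and 8 the GC box. The inner Osbpl5 windows lay at chr7:143741914-143742213, with 0 matches to any of the 4, and at chr7:143740311-143740610, with 3 GC boxes. The motifs were picked with the results known, and a match is a description of the letters and not a site.

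The knockout labels were checked on Ptbp2 itself. Its gene level was 6.24, 5.80, 5.54 and 6.22 in knockout cortex, against 11.40, 11.15, 11.08 and 11.16 in wild type cortex (log2 signal). The log2 fold change was -5.25 (SE 0.14, limma adjusted p = 1.7e-12 over all genes; two-sided exact permutation p = 0.0286, the smallest that 4 against 4 arrays allow), with a knockout mean of 5.95 under the signal filter of 6.84, so that the size of the fall is not exact. The arrays had medians of 6.82 to 6.93. Those of knockout 1, 3 and 4 (6.93, 6.89 and 6.89) lay above every wild type array (6.82 to 6.85), while knockout 2 was at 6.82. With 4 arrays a group, precision is limited. The neuronal markers Tubb3 (12.94 in knockout and 12.90 in wild type cortex) and Neurod6 (11.56 and 11.54) were far above the filter. In a principal component analysis of gene levels (PC1 28.9% and PC2 22.6% of the variance), knockout 3 and wild type 3 were the outermost arrays, and the main values are also given without them.

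Of the whole family, Osbpl5 stood higher in the knockout cortex, and the other 9 genes overlapped between the groups. Osbpl5 had gene levels of 9.73, 9.47, 9.57 and 9.88 in knockout 1 to 4, against 8.95, 9.06, 8.95 and 8.88 in wild type 1 to 4. Every knockout array lay above every wild type array, and the knockout values were the more spread. The means were 9.66 ± 0.18 in knockout and 8.96 ± 0.072 in wild type cortex (SD, n = 4 each), a log2 fold change of 0.70, or 1.63-fold. A gene level here is the median over the gene's retained probe sets, those with a mean log2 signal of at least 6.84. Gene levels did not overlap between the groups for 3.65% of all genes tested, in either direction, and 0.116% passed an adjusted p of 0.05. Since Osbpl5 was selected on this comparison, nothing is read from these shares. Without knockout 3 and wild type 3 its log2 fold change was 0.73. In bulk tissue a change in the number of cells that hold an RNA and a change in the RNA per cell cannot be told apart.

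**Figure D1:**
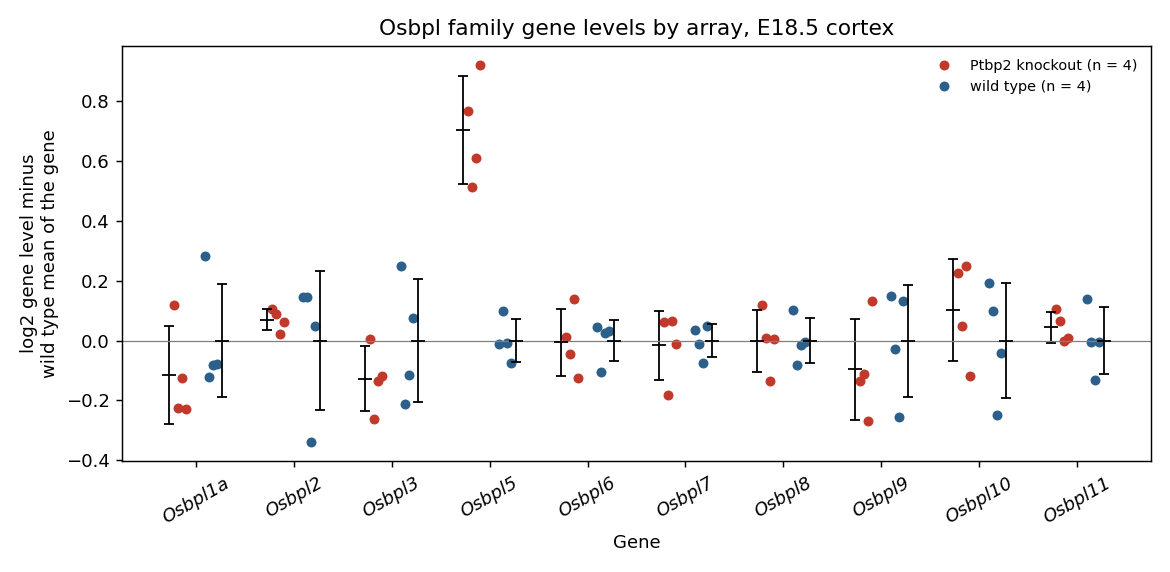
Gene levels of the 10 Osbpl members on each array, as log2 gene level minus the wild type mean of the same gene (y axis), with knockout points at the left and wild type points at the right of each gene and the group mean ± SD (n = 4 each) beside them in black. Osbpl5 is the gene whose knockout arrays all lie above its wild type arrays, with a difference of 0.70, while the differences of the other 9 lie between -0.13 and 0.10.

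The higher level of Osbpl5 was seen in most of its probe sets. Of its 25 probe sets, 23 passed the signal filter, and all 23 were higher in knockout than in wild type means, by log2 differences between 0.081 and 0.94 with a median of 0.70. Of these 23, 19 differed by more than 0.5. For 21 of the 23 (91.3%) the groups did not overlap, with the knockout higher, which held for 2.73% of all retained probe sets. Osbpl5 was selected on this same comparison, so nothing is read from the distance between these shares. Probe sets of a gene share its RNA and are not replicates, so the count of 21 is a description of 1 gene. The 2 probe sets below the filter, 4684394 and 5418970, had differences of -0.39 and 0.16.

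The 4 probe sets of Osbpl5 with the largest differences were 5268048 (0.94), 5216693 (0.91), 4597901 (0.89) and 5267658 (0.88). Probe set 5268048 read 9.29, 9.01, 8.92 and 9.42 in knockout cortex, against 8.37, 8.14, 8.15 and 8.20 in wild type cortex. Probe set 4597901 read 10.11, 9.83, 10.13 and 10.16 in knockout cortex, against 9.17, 9.20, 8.96 and 9.32 in wild type cortex. In both, the lowest knockout array was well above the highest wild type array.

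The 4 with the smallest differences were 4751680 (0.43), 5492968 (0.32), 5028050 (0.27) and 4497097 (0.081). Probe set 4497097 read 8.47, 8.38, 8.64 and 8.55 in knockout cortex, against 8.20, 8.53, 8.45 and 8.56 in wild type cortex, so that the groups overlapped there. It was not a dim probe set, since its mean over the 8 arrays was 8.47. Relative to the other probe sets of Osbpl5, as limma's diffSplice sets them, it deviated by -0.61, 5028050 by -0.41 and 5492968 by -0.36. The groups also overlapped for 5287787 (log2 difference 0.70), where knockout 3 (8.73) lay below wild type 1 (8.95). Genome positions of the probe sets were not used here, so these probe sets are not assigned to an exon or to one of the start sites.

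**Figure D2:**
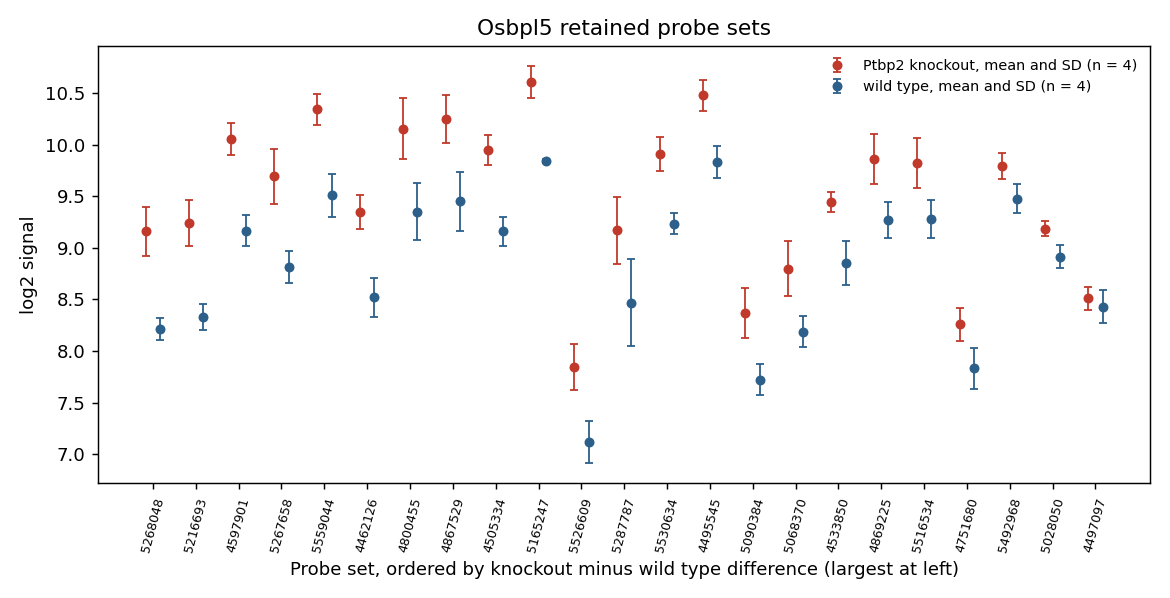
Log2 signal (y axis) of the 23 retained Osbpl5 probe sets (x axis, ordered by the knockout minus wild type difference, largest at the left), as mean ± SD of 4 knockout arrays (left of each pair) and 4 wild type arrays (right). All 23 knockout means lie above the wild type means, from a difference of 0.94 at the left to 0.081 at the right.

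The closest relative by anchor and reported activity, Osbpl8, had no such difference. Its gene level was 10.45, 10.34, 10.19 and 10.33 in knockout cortex, against 10.43, 10.25, 10.31 and 10.32 in wild type cortex. The values of the groups were interleaved, and the log2 fold change was -9.9e-04 (SE 0.091, 95% interval -0.19 to 0.19, limma adjusted p = 1.0). The interval ends far below the 0.70 of Osbpl5, but the difference between these genes was not tested, as Osbpl5 was selected on it. Of the 31 Osbpl8 probe sets, all passed the filter, and their differences lay between -0.57 and 0.28 with a median of 0.0098. The lowest, 4617316, read 8.48, 8.82, 7.50 and 9.24 in knockout cortex, against 9.67, 8.66, 8.94 and 9.04 in wild type cortex. It rested largely on knockout 3, and its usage deviation of -0.57 (diffSplice adjusted p = 0.23) was -0.27 without that array and -0.80 without knockout 4 (adjusted p = 0.0093).

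Across the 9 members other than Osbpl5, limma called 0 at an adjusted p of 0.05 (adjusted p 0.91 to 1.0), where 0.116% of all genes passed. At an unadjusted p under 0.05 there were 0 of the 9, against 6.49% of all genes. Of these 9, 3 were higher and 6 lower in knockout cortex, with a median log2 fold change of -0.0052 beside 0.0027 for all genes tested. The bounds of their 95% intervals ran from -0.36 to 0.34, so that a change as large as 0.70 in either direction lay outside each interval. In 0 of the 9 did the groups separate, against 3.65% of all genes tested, in either direction. With only 9 genes, these counts of 0 are no result about the members.

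Among the members that act at the plasma membrane or late endosomes, Osbpl2, whose human product carries cholesterol to the plasma membrane, had levels of 10.32, 10.30, 10.24 and 10.28 in knockout cortex, against 10.36, 10.36, 9.87 and 10.26 in wild type cortex. Wild type 3 stood below the rest, and the log2 fold change of 0.070 (SE 0.11) turned to -0.044 without it. Osbpl1a, whose long human isoform ORP1L senses cholesterol on late endosomes, had levels of 9.49, 9.15, 9.25 and 9.14 in knockout cortex, against 9.66, 9.25, 9.29 and 9.29 in wild type cortex. The array numbered 1 was the highest in both groups, and the log2 fold change was -0.12 (SE 0.11, limma adjusted p = 0.93).

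Osbpl3, Osbpl6 and Osbpl7 form a subfamily of ER and plasma membrane contact proteins. Osbpl3 was at -0.13 on the log2 scale (SE 0.11), with 7.84 to 8.11 in knockout and 7.89 to 8.35 in wild type cortex. Osbpl6 had 9.21 to 9.48 in knockout and 9.23 to 9.38 in wild type cortex (log2 fold change -0.0052, SE 0.092). Osbpl7 had 7.77 to 8.02 in knockout and 7.88 to 8.00 in wild type cortex (log2 fold change -0.016, SE 0.091). The groups overlapped in all 3, although wild type 1 and wild type 4 lay above every knockout array for Osbpl3. The sign for Osbpl7 turned with the other signal filters, as did that for Osbpl6 with no filter, as given in the closing section.

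Osbpl9 encodes a protein of contacts between the ER and the Golgi, and in human cells the products of Osbpl10 and Osbpl11 pair with it. Osbpl9 had 9.93 to 10.33 in knockout and 9.94 to 10.34 in wild type cortex (log2 fold change -0.096, SE 0.11). Osbpl10 had 8.34 to 8.71 in knockout and 8.21 to 8.66 in wild type cortex (log2 fold change 0.10, SE 0.11), and its sign turned with no filter (-0.042), with the 75th percentile filter (-0.031) and without knockout 3 and wild type 3 (-0.031). Osbpl11 had 9.16 to 9.27 in knockout and 9.03 to 9.30 in wild type cortex (log2 fold change 0.044, SE 0.090; -0.055 with the 75th percentile filter). None of these 3 partners passed the test, at limma adjusted p = 0.95, 0.95 and 0.98.

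The 252 probe sets of these 9 genes were examined next, since a change limited to part of a transcript is lost in a gene median. Of the 252, 224 passed the filter. In level, limma called 0 of the 224 (lowest adjusted p 0.11), where 0.0921% of all retained probe sets passed. At an unadjusted p under 0.05 there were 13, or 5.80% of the 224, against 7.44% of all retained probe sets. In usage, the signal of a probe set relative to the rest of its gene, diffSplice called 0 of the 224 (lowest adjusted p 0.23), where 0.216% of all probe sets tested passed, and the splicing index called 0. At an unadjusted usage p under 0.05 there were 11, or 4.91% of the 224, against 4.57% of all probe sets tested. The median difference of the 224 was -0.016.

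Osbpl1a held 9 of the 13, and all 9 were lower in knockout cortex. They differed by log2 values between -0.57 and -0.35, with limma adjusted p between 0.11 and 0.58. The other 19 of its 28 retained probe sets lay between -0.27 and 0.14, with 8 above and 11 below 0. For 6 of the 28 (21.4%) the groups did not overlap, with the knockout lower, which held for 1.51% of all retained probe sets. Probe sets of 1 gene share its RNA, and no call was made over all probe sets.

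The largest of these differences was in probe set 4571772, which read 8.76, 8.61, 8.64 and 8.78 in knockout cortex, against 9.24, 9.21, 9.35 and 9.26 in wild type cortex. All knockout arrays lay below all wild type arrays, with means of 8.70 ± 0.084 in knockout and 9.27 ± 0.062 in wild type cortex (SD, n = 4 each). The log2 difference was -0.57 (SE 0.10, limma adjusted p = 0.11), and its adjusted p was 0.036 when only probe sets above the 75th percentile of signal were tested. Probe set 5234641 of Osbpl1a read 10.11, 9.78, 10.08 and 9.94 in knockout cortex, against 10.46, 10.49, 10.50 and 10.56 in wild type cortex (-0.52, SE 0.11, adjusted p = 0.21), again without overlap. This probe set was named after its values were seen. Relative to the rest of Osbpl1a the pair deviated by -0.43 and -0.38, and the diffSplice adjusted p of the first was 0.71. Osbpl1a is known to give a long and a short protein from separate starts in human cells, and the place of these probe sets relative to either was not determined here.

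**Figure D3:**
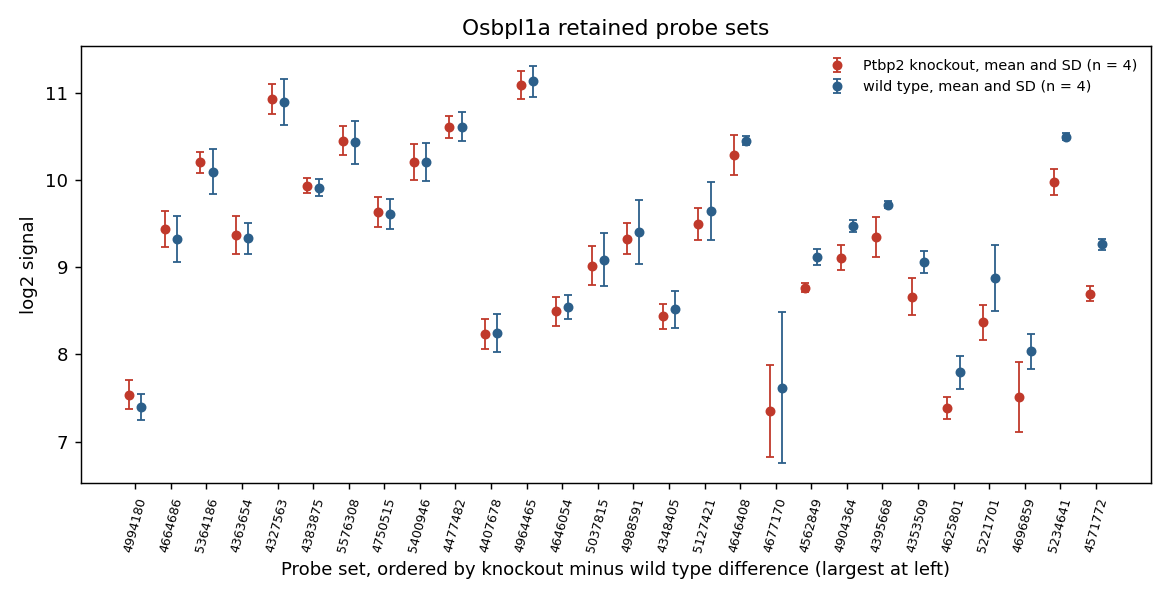
Log2 signal (y axis) of the 28 retained Osbpl1a probe sets (x axis, ordered by the knockout minus wild type difference, largest at the left), as mean ± SD of 4 knockout arrays (left of each pair) and 4 wild type arrays (right). At the right are the 9 probe sets that differ by -0.35 to -0.57, while the other 19 lie between -0.27 and 0.14.

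In the remaining members the largest single probe set difference was 4399008 in Osbpl3 (-0.38, limma adjusted p = 0.62), 4391584 in Osbpl6 (-0.35), 4467632 in Osbpl10 (0.43, adjusted p = 0.65), 5493900 in Osbpl9 (-0.36), 5127452 in Osbpl11 (0.31), 4978926 in Osbpl2 (-0.29) and 4939406 in Osbpl7 (0.25). The groups overlapped in each of these 7. Probe set 4467632 of Osbpl10 read 7.36, 7.75, 6.80 and 7.22 in knockout cortex, against 6.85, 7.13, 6.75 and 6.70 in wild type cortex, close to the filter of 6.84. Apart from Osbpl1a and Osbpl5, the groups did not overlap for 2 probe sets of Osbpl6, 1 of Osbpl8 and 1 of Osbpl10, with differences of 0.22, 0.11, -0.12 and -0.15. Over all retained probe sets the groups did not overlap for 2.73% with the knockout higher and 1.51% with it lower, so these 4 are no result about the members.

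**Figure D4:**
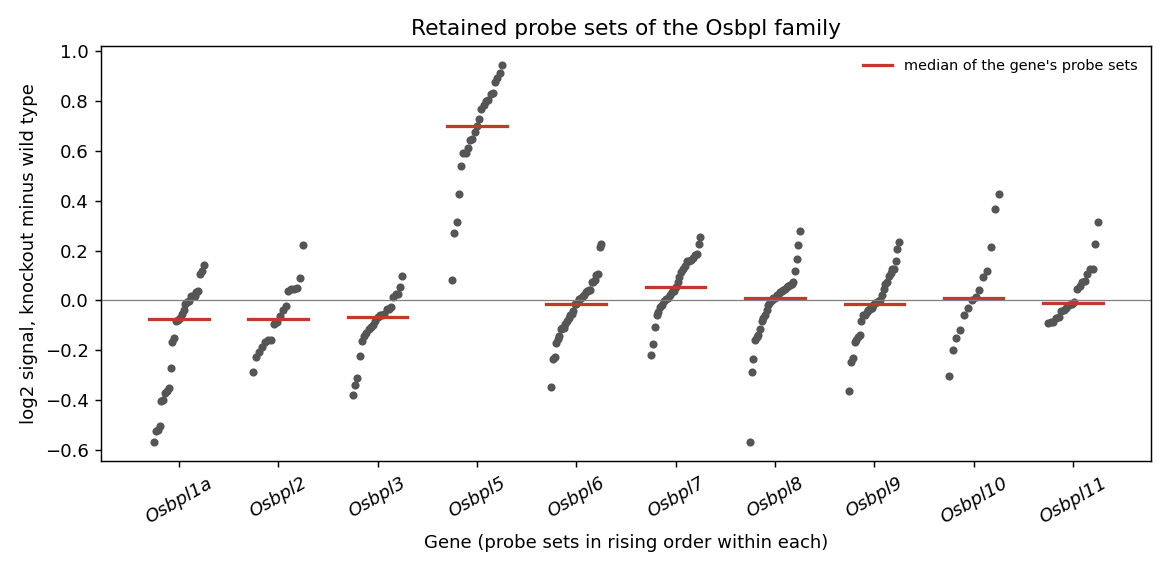
Knockout minus wild type difference in log2 signal (y axis) for each retained probe set of the 10 Osbpl genes (points, in rising order within a gene), with the median of each gene's probe sets as a red line. The 23 points of Osbpl5 are all above 0 around a median of 0.70, the medians of the other genes lie between -0.076 and 0.053, and Osbpl1a has a group of points below -0.3.

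The 2 family genes outside the members were compared in the same fit. Osbp, the founding gene, whose product exchanges cholesterol and PI4P between the ER and the Golgi, had 9.58, 9.43, 9.46 and 9.33 in knockout cortex, against 9.53, 9.43, 9.30 and 9.31 in wild type cortex. Its log2 fold change was 0.058 (SE 0.093, limma adjusted p = 0.97). Osbp2, which encodes ORP4, had 8.51, 8.29, 8.23 and 8.36 in knockout cortex, against 8.50, 8.34, 8.39 and 8.41 in wild type cortex (log2 fold change -0.063, SE 0.093, adjusted p = 0.96). The groups overlapped for both. RefSeq gives Osbp2 as an old name of Osbpl5 as well, and the array's annotation was read with the current meaning.

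Genes that work beside the ORP proteins were then counted from lists of known partners. Of 20 contact site partners tested, which include the VAP proteins and the extended synaptotagmins, 0 passed over all genes in either direction (0 at an unadjusted p under 0.05), and the list median was 0.0056. Its smallest p values were those of Mospd3 (-0.12), a VAP relative, Immt (0.11), a mitochondrial inner membrane organiser, Jph3 (0.10), a junctophilin, and Npc2 (0.096), a lysosomal sterol carrier. Of 18 enzymes of PI4P and phosphatidylserine metabolism, 0 passed (0 at an unadjusted p under 0.05), with a median of -0.031. They were led by Pip5k1b (-0.22), a kinase of phosphatidylinositol 4-phosphate, Efr3b (-0.17), a membrane anchor of the PI4P-making kinase complex, Sacm1l (-0.13), the ER phosphatase that removes PI4P, and Ptdss2 (0.11), a phosphatidylserine synthase. Beside these lists and those below, 0.116% of all genes tested passed and 6.49% had an unadjusted p under 0.05 (limma). With so few genes in a list, 0 calls are no result about the partners or the enzymes.

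Of 24 other lipid transfer proteins, limma called 0, and 1 was higher and 1 lower at an unadjusted p under 0.05, with a list median of 0.0022. Gramd1a, an ER sterol transporter at the plasma membrane, averaged 10.09 ± 0.068 in knockout and 9.87 ± 0.057 in wild type cortex (SD, n = 4 each), a log2 fold change of 0.21 (limma adjusted p = 0.74) without overlap between the groups. Pitpna, a phosphatidylinositol transfer protein, was at -0.28 (adjusted p = 0.75), Pitpnb at 0.17 and Pitpnc1 at -0.13. Of 19 sterol response genes, 0 passed, 1 was lower at an unadjusted p under 0.05, and the median was -0.020. That gene was Lss, lanosterol synthase, with 9.03 ± 0.076 in knockout and 9.41 ± 0.18 in wild type cortex (log2 fold change -0.38, SE 0.10, adjusted p = 0.36). Mylip, which marks the LDL receptor for breakdown, was at -0.19, and the sterol enzymes Cyp51 and Fdps were at -0.18 and -0.13.

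The neighbours of Osbpl5 in the imprinted domain of chromosome 7 were compared because in mouse placenta Osbpl5 is expressed from the maternal copy. Of 15 tested, 2 were higher and 13 lower in knockout cortex, 0 passed (0 at an unadjusted p under 0.05), and the median was -0.025. The smallest p values were those of Tspan32, a tetraspanin (-0.20), Th, tyrosine hydroxylase (-0.13), Nadsyn1, an enzyme of NAD synthesis (0.083), and Tnfrsf22, a TRAIL receptor (-0.087), with adjusted p of at least 0.89. Arrays cannot tell the parental copies apart.

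**Figure D5:**
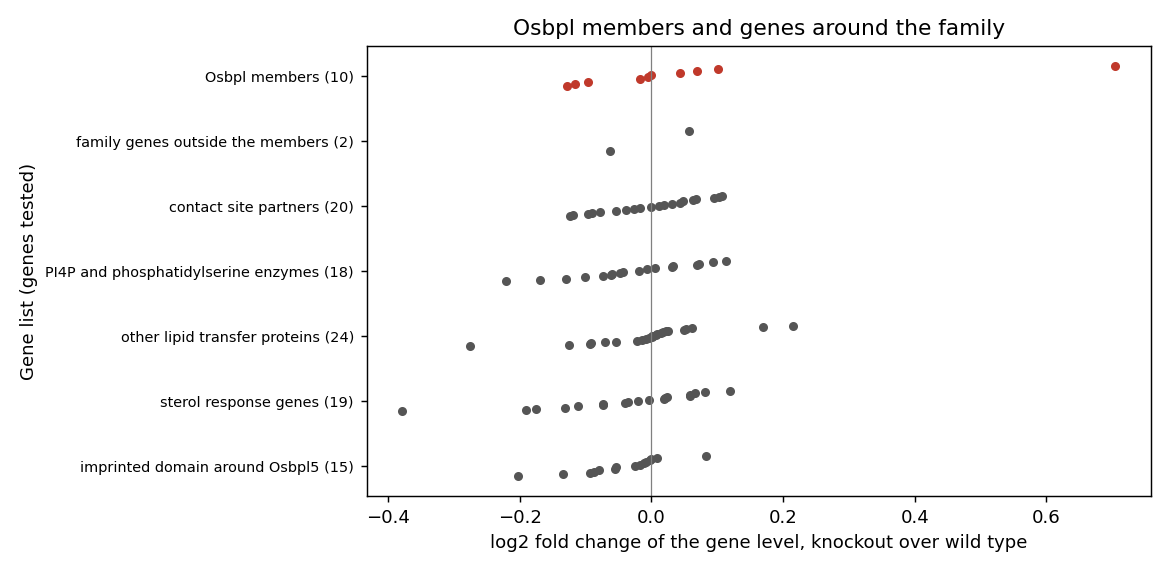
Log2 fold change of the gene level, knockout over wild type (x axis), for the 10 Osbpl members (red) and for the genes tested in each list (grey, number in brackets), 1 point per gene. Osbpl5 at 0.70 is the point at the far right, and the listed genes lie between -0.38 and 0.21.

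Markers of other cell types and of neighbouring tissue were read on the same arrays. The mean level of the striatal markers Tac1, Ppp1r1b, Penk and Drd1 was 8.67 to 8.96 in knockout cortex, against 9.14 to 9.50 in wild type cortex, without overlap, and each of these 4 had an unadjusted p below 0.05 (limma) and groups that did not overlap. Over all genes, 6.49% had such a p and 3.65% did not overlap in either direction. The mean of the 2 microglial markers tested of 4 was 7.96 to 8.16 in knockout and 7.73 to 7.91 in wild type cortex. These means did not overlap, but the groups overlapped for each gene alone, with Cd68 at 0.35 and Csf1r at 0.056. Choroid plexus and ependymal markers ranged from 7.84 to 9.46 in knockout and from 9.25 to 9.47 in wild type cortex. Their low end was knockout 2, where Ttr read 9.36 against 13.2 to 13.4 on the other arrays. For radial glia the ranges were 10.47 to 10.68 in knockout and 10.27 to 10.60 in wild type cortex, and those of neurons, endothelium, pericytes and meninges, oligodendrocyte lineage, astrocytes and the 1 erythroid gene overlapped too. Even so, all 4 oligodendrocyte lineage genes and the 2 astrocyte genes tested were lower in knockout cortex. Among them, Pdgfra (-0.28) and Aldh1l1 (-0.28) had unadjusted limma p of 0.040 and 0.034, and the groups did not overlap for Olig2 (-0.21). Of the 29 marker genes tested, 0 passed over all genes (limma, lowest adjusted p 0.085). Without knockout 2, the log2 fold change of Osbpl5 was 0.77. The part of striatal, microglial, oligodendrocyte lineage and astrocyte RNA in the values of Osbpl5 and of the Osbpl1a probe sets was not tested.

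Within the groups, the deviation of each array from its group mean was compared between genes. Over the 8 arrays, the 5 genes outside the family with the deviations most like those of Osbpl5 were Snph (Pearson r 0.98), Tap1 (0.96), Tmie (0.94), Ppm1a (0.94) and Tspoap1 (0.93). They were the highest of all genes tested over 8 arrays, which share 1 normalization, and the values describe these arrays only. None of the 5 differed in level past the threshold, with log2 fold changes between -0.077 and 0.083. Within the family, the same measure ran from -0.58 for Osbpl6 to 0.37 for Osbpl9.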

How the data were processed

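Per the series design, 8 arrays measured 4 Ptbp2 knockout and 4 wild type cortices. The authors deposited 1 log2 signal for each probe set and array, for which the submitters' processing notes name Affymetrix Expression Console, RMA and mm9; no versions are stated in those notes. RMA normalizes between arrays, which removes differences in total RNA and compresses low signals, and depth does not apply. A platform annotation gave exactly 1 symbol to 303629 of 625534 probe sets, updated through RefSeq (GRCm38.p6). Probe sets with a mean of at least 6.84, the median, were retained (312767), and genes with at least 4 of them were tested as medians. Genes and all retained probe sets were fitted across the genome with lmFit and eBayes of limma 3.58.1 (R 4.3.3), and 195622 probe sets for usage with diffSplice, without covariates and with Benjamini-Hochberg adjustment at 0.05. Intervals are 95% from that fit. The scripts were tested on simulated data.

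Members and lists were chosen with earlier results of these data known. Named are all members, Osbp, Osbp2, Ptbp2, per list the 4 genes with the smallest p, the 5 genes most like Osbpl5, its 4 highest and 4 lowest probe sets, and for other members each called probe set and the largest difference; marker genes, Osbpl1a 5234641 and Osbpl5 5287787, 4684394 and 5418970 were named outside this rule, after their values were seen. Same-numbered arrays of the groups had correlated deviations of 0.25, -0.0039, 0.033 and 0.17 and the labels state no pairing. Alternatives were other signal filters, further normalization, the mean, a minimum of 1 probe set, trend and robust, the replicate block, the splicing index and arrays left out. Leaving out knockout 3 and wild type 3 together, and following Osbpl8 4617316 and the Osbpl1a count, were added after the data were seen. Background correction and scan batches were not run, as the table holds no scanner columns.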

Additional observations from a re-analysis of the deposited data

Results flagged for a closer look

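In all, 5 single arrays stood far from the other 3 of their group, by Dixon's criterion on the gap to the nearest array. The 60 groups of 4 arrays examined were those of the members, Osbp, Osbp2, Ptbp2 and some probe sets. These probe sets were the 4 highest and 4 lowest of Osbpl5 and the largest difference of each other member. Chance gives about 5% of groups. List and marker genes were not examined, among them Ttr, at 9.36 in knockout 2 against 13.18 to 13.34 on the other knockout arrays. Osbpl1a in wild type 1 was at 9.66, against 9.25 to 9.29 on the other wild type arrays. Osbpl6 in wild type 2 was at 9.23, below 9.36 to 9.38. Probe set 5127452 of Osbpl11 read 9.27 in knockout 1, against 8.92 to 8.96 on the other knockout arrays. In Osbpl5, probe set 4597901 read 9.83 in knockout 2, below 10.11 to 10.16 on the other knockout arrays and still above wild type (at most 9.32). Probe set 5028050 of Osbpl5 read 9.29 in knockout 3, against 9.14 to 9.16 on the other knockout arrays.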

How the results depend on the processing

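Osbpl5 kept its sign in 17 alternative fits of the gene level, with log2 fold changes between 0.58 (no signal filter) and 0.77 (without knockout 2). With no filter, 24 of its 25 probe sets were above 0. Osbpl5 met the threshold it was selected on in 15 of these 17 fits, but not with no signal filter or with a minimum of 1 probe set. As it was selected on this comparison, that count is a description. No other member passed at gene level in any of the 17. Of the probe sets of these members, Osbpl1a 4571772 passed in level with the 75th percentile filter (1 call; the change in tested probe sets is the only difference), and 1, Osbpl8 4617316, passed in usage without knockout 4 (-0.80, adjusted p = 0.0093; 0 to 1 over the arrays left out, adjusted p up to 1.0). The Osbpl1a count of 9 was 7 to 10.

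Signs turned for small differences, and the cause was not tested. With no filter, Osbpl2 was at -0.058, Osbpl10 at -0.042, Osbpl6 at 0.039 and Osbpl7 at 0.13. With the 75th percentile filter, Osbpl2 was at -0.0014, Osbpl10 at -0.031, Osbpl11 at -0.055 and Osbpl7 at 0.24. With the mean, Osbpl2 was at -0.067 and Osbpl7 at 0.058. Without knockout 3 and wild type 3, Osbpl2 was at -0.029, Osbpl10 at -0.031 and Osbpl8 at 0.038. With 1 array left out, Osbpl2 ran from -0.044 to 0.12, Osbpl6 from -0.054 to 0.035, Osbpl7 from -0.044 to 0.039 and Osbpl8 from -0.040 to 0.044.

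Over all genes, 15 passed, against 7 with no filter, 25 with the 75th percentile filter, 24 with quantile normalization, 37 with the mean, 5 with a minimum of 1 probe set, 9 without knockout 3 and wild type 3, and 7 to 15 with 1 array left out. Over all probe sets, 288 passed in level, against 152 with no filter, 461 with trend and robust, 187 with the replicate block, 107 without knockout 3 and wild type 3, and 132 to 285 with 1 array left out. In usage, 422 passed, against 913 with no filter, 141 with the 75th percentile filter, 21 with the splicing index, 256 without knockout 3 and wild type 3, and 171 to 865 with 1 array left out. The replicate block changed no other count by over 1.5 times. Signals near the filter of 6.84 limit what low probe sets can show.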
